A study of Mus musculus with 38 samples.

Results

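The genes described here are 31 members of the cholesterol and fatty acid synthesis pathways and of the sterol-sensing system that controls them, chosen by name from the 49585 genes listed in each of 4 tables of normalised counts. All 31 had a mean of at least 10 in every table, which was the requirement for testing, so none was left out for a low level. By role the set holds 8 enzymes from acetoacetyl-CoA to squalene, 10 enzymes from squalene to cholesterol, 6 genes of sterol sensing and transport, and 7 genes of fatty acid synthesis, desaturation and elongation. The samples were mouse back skin, or cells sorted from it, after deletion of Srsf2 or induction of its P95H mutation. Srsf2 encodes a serine and arginine rich protein that binds RNA and takes part in splicing and transcription. The 38 libraries each came from a separately numbered mouse.

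In whole skin all mice, controls included, received topical 4-hydroxy tamoxifen every other day. The knockout mice carried the Krt14-CreER transgene (labelled Cre positive), which drives recombination from a keratin promoter active in basal keratinocytes, while their controls were Cre negative. Knockout skin was taken after 4, 10 and 12 days (3 mice each), and its 3 controls had been treated for 12, 12 and 10 days. The tdTomato reporter allele differed between these mice: it was heterozygous, homozygous and wild type in the 3 controls, homozygous in 2 mice and wild type in 1 at 4 days, 1 of each kind at 10 days, and heterozygous in all 3 at 12 days. P95H skin was taken after 12 days (2 mutants, 5 controls) and 28 days (4 mutants, 3 controls). These mice were tdTomato wild type, the mutants Cre positive and the controls Cre negative. Sorted reporter positive cells came from back skin 10 days after topical 4-hydroxy tamoxifen (3 knockouts, 3 controls), and from mice given 3 tamoxifen injections and DMBA/TPA, a chemical skin carcinogenesis treatment, at 20 weeks (3 heterozygous P95H mice, 3 controls). No Cre status of the sorted controls and no age of any animal was found in the labels.

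In the whole-skin tables every value was a whole multiple of a unit particular to its library, called a step here, and levels in whole skin are given in steps; levels in sorted cells are given as deposited normalised counts. Library totals ranged from 28515245 to 37528050 steps in the knockout skin set, from 16100013 to 17388749 steps in the P95H skin set, from 45930438 to 92761588 reads in sorted knockout cells and their controls, and from 10977763 to 17239256 reads after DMBA/TPA. Replicate 1 of the P95H group at 28 days stood apart, with the highest step of its table (2.35) and the fewest genes above 1 step (22901, against up to 26369 in the others). Replicate 2 of the sorted knockout group stood apart in the same way, with a step of 3.42 and 18947 genes above 1 read. As a check of the labels, Srsf2 was at 3658, 3359 and 1900 normalised counts in sorted knockout cells and at 17560, 18190 and 20595 in sorted controls. In whole skin the 4-day and 12-day groups lay below all controls and the 10-day group did not: 2885, 2879 and 2996 steps in controls, 2450, 2790 and 2671 at 4 days, 2996, 3084 and 3687 at 10 days, and 2303, 2559 and 2382 at 12 days. A level of Srsf2 does not check the P95H labels. The keratinocyte markers of the labelled tissue were present in every group, and no marker of basal keratinocytes was absent from any group.

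Cholesterol is made from acetyl-CoA through mevalonate, squalene and lanosterol, and fatty acids are made from the same acetyl-CoA by carboxylation and repeated elongation. Both pathways are switched on by SREBP transcription factors, which the escort protein SCAP carries out of the endoplasmic reticulum when sterols are low and which INSIG proteins hold back when sterols are high. In skin, sterols and fatty acids are components of the epidermal barrier, and sebaceous glands make large amounts of lipid for secretion as sebum.

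The regions before the starts of 5 members, all called higher in P95H skin at 12 days, are shown. SREBP acts at such regions together with the factors NF-Y and Sp1. Whether SREBP had a part in the changes of these genes was not tested. RefSeq promoter windows on GRCm38.p6 (250 bases before to 50 after the start) were at hand for 26 of the 31 members, in 34 windows. The letters searched, on both strands, were TCACNCCAC for a sterol regulatory element, CCAAT for NF-Y and GGGCGG for Sp1. The 250 bases before each start are printed below, 5′ to 3′ along the gene, with matches to TCACNCCAC and to CCAAT on either strand in capitals (a CCAAT on the opposite strand reads ATTGG). Hmgcs1, which encodes cytosolic HMG-CoA synthase, lies on the plus strand at chr13:119690101-119690350. Msmo1, a sterol C4-methyl oxidase, is on the minus strand at chr8:64733579-64733828. Nsdhl, a sterol dehydrogenase that acts in the same C4 demethylation, is on the plus strand at chrX:72918271-72918520. Cyp51, lanosterol demethylase, is on the minus strand at chr5:4104698-4104947. Ebp, a sterol isomerase, is on the minus strand at chrX:8193513-8193762.
Hmgcs1: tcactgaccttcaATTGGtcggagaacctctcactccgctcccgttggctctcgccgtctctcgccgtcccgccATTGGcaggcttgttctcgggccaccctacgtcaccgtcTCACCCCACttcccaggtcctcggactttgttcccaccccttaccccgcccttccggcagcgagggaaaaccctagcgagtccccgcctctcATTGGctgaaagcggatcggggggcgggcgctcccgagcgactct
Msmo1: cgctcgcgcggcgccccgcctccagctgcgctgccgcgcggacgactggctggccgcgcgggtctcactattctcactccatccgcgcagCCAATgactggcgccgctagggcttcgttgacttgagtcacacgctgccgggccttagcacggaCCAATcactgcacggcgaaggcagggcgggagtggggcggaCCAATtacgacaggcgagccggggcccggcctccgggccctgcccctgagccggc
Nsdhl: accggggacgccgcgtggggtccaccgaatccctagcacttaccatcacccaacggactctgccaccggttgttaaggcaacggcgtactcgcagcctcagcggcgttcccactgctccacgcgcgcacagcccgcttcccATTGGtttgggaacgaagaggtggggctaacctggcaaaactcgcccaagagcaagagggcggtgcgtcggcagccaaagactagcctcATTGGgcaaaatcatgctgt
Cyp51: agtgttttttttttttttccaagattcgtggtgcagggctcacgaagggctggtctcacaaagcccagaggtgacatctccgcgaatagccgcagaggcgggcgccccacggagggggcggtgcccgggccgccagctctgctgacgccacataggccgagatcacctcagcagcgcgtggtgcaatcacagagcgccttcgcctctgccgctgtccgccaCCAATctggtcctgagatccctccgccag
Ebp: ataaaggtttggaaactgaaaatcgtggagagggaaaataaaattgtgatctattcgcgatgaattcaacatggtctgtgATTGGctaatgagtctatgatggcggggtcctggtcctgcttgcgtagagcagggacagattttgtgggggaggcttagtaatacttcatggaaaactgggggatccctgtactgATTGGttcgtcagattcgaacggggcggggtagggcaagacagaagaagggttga

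Of the 26 members with windows, 21 held a CCAAT match and 22 a GGGCGG match, beside 41.06% and 38.2% of all 27025 genes with windows. TCACNCCAC was found in 1 member, Hmgcs1, where the match begins 137 bases before the start; 1.436% of all genes held it. These matches describe the letters in the windows and do not mark bound sites.

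Per kilobase of exon, the most abundant members in the 5 control skins of the P95H set at 12 days were Elovl6 (1211 ± 324 steps per kilobase, SD), Fasn (1073 ± 61.7), Hmgcs1 (957 ± 107) and Acly (838 ± 47.3). Elovl6 elongates palmitate, Fasn is the fatty acid synthase and Acly makes cytosolic acetyl-CoA from citrate. The SDs of Elovl6 and Fasn overlapped. The lowest were Tm7sf2, a sterol reductase (40.1 ± 5.56), the desaturase Fads2 (39.9 ± 17.2) and Fdps, farnesyl diphosphate synthase (39.1 ± 5.14), which did not differ beyond their spread. In sorted control cells Hmgcs1 was the most abundant member (5423 ± 699 normalised counts per kilobase, n = 3) and Fads2 the least (3.40 ± 2.69), and the same 2 genes were at the top and bottom in sorted DMBA/TPA controls.

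In P95H skin at 12 days, 14 of the 31 members were higher than in control skin by limma's moderated test with Benjamini-Hochberg adjustment over all 18311 genes of that table (threshold 0.05), and 0 were lower. Over all genes tested, 3.96% were called higher and 2.97% lower. The fitted change was above 0 in 30 of 31 members, with a median of 0.40 log2 against -0.00178 over all genes, and both mutants lay above all 5 controls in 20 members, beside 13.7% of all genes. The 14 were Acat2, Hmgcs1 and Idi1 of the early steps, Lss, Cyp51, Msmo1, Nsdhl, Hsd17b7 and Ebp of the sterol steps, Insig1 of the sensing genes, and Acly, Acss2, Fasn and Elovl6 of fatty acid synthesis. In bulk skin a larger share of cells of one type and more RNA per cell cannot be told apart.

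**Figure D1:**
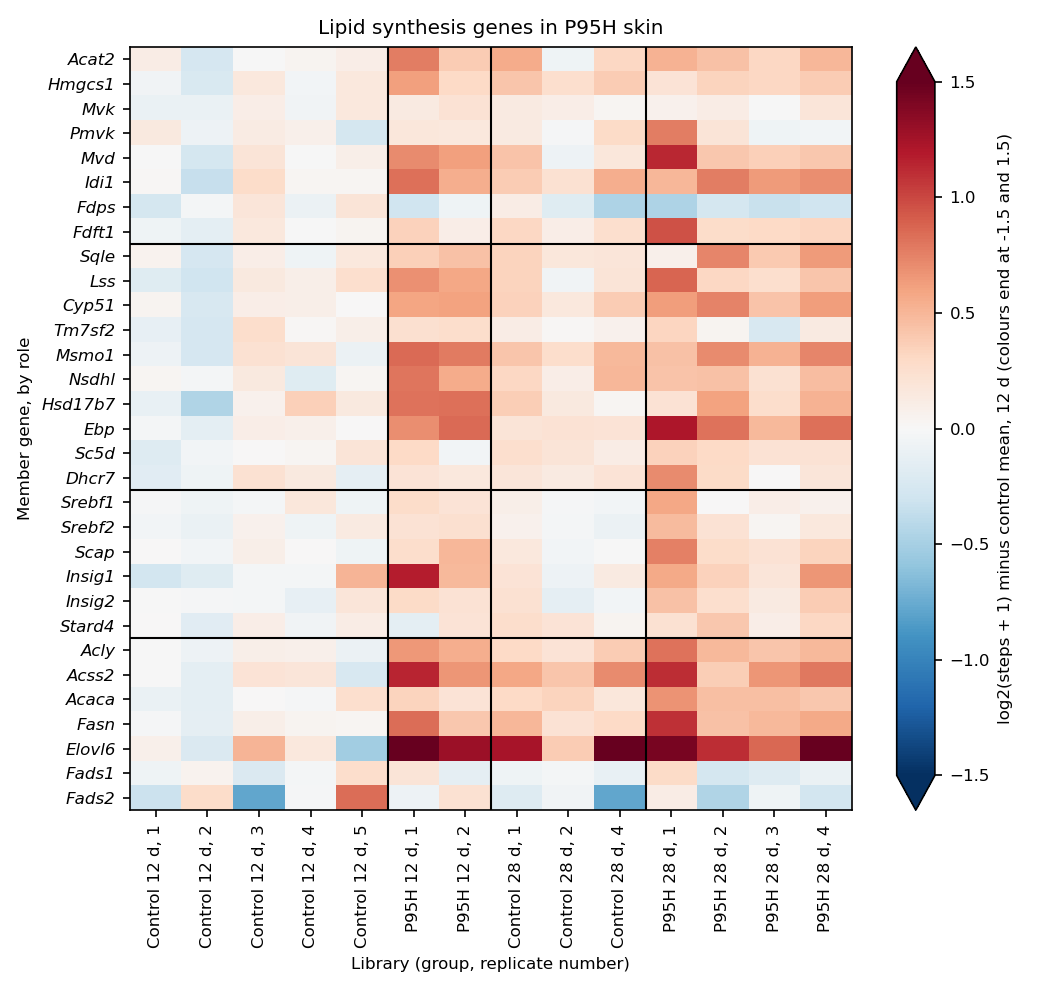
Levels of the 31 members in the 14 P95H-set skin libraries, as log2(steps + 1) minus the mean of the 5 controls at 12 days (colour; rows are genes by role, columns libraries, black lines separate roles and groups). The 2 mutants at 12 days are red in most rows; control skin at 28 days is also red for several genes, with Elovl6 the strongest.

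Of the 10 enzymes from squalene to cholesterol, 6 rose, all of them at or after the formation of lanosterol. Msmo1 was at 2076, 1841, 2554, 2490 and 2050 steps in the 5 controls and at 3938 and 3744 in the mutants, a rise of 0.81 ± 0.12 log2 (SE; 1.76-fold, adjusted p = 0.00128). Both mutants stood well above the highest control. Cyp51 was at 1722, 1421, 1791, 1781 and 1675 steps in controls and 2518 and 2548 in mutants (0.60 ± 0.10 log2, adjusted p = 0.00267). Nsdhl was at 438, 423, 478, 378 and 441 steps in controls against 749 and 634 (0.68 ± 0.12 log2, adjusted p = 0.00302). Neither gene's groups overlapped. Ebp was at 343, 318, 375, 369 and 352 steps in controls and 570 and 634 in mutants, a 1.71-fold rise (0.78 ± 0.14 log2, adjusted p = 0.00411). Hsd17b7, a ketosteroid reductase of the same segment, rose 1.77-fold, from 921, 724, 1036, 1276 and 1097 to 1753 and 1762 steps (adjusted p = 0.00988). Lanosterol synthase (Lss) rose 1.55-fold (adjusted p = 0.0387), with 964 to 1422 steps in controls and 1917 and 1776 in mutants. Sqle, the squalene epoxidase that opens this segment, was at 1657, 1343, 1712, 1521 and 1788 steps in controls and 2053 and 2161 in mutants; the groups did not overlap, but its 0.40 ± 0.15 log2 difference missed the threshold (adjusted p = 0.122). The remaining 3, Tm7sf2, Sc5d and Dhcr7, had differences of 0.13 to 0.25 log2 and did not pass.

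Of the 8 enzymes from acetoacetyl-CoA to squalene, 3 rose. Hmgcs1 was at 4212, 3740, 4902, 4265 and 4871 steps in controls and 6699 and 5404 in mutants (0.46 ± 0.11 log2, adjusted p = 0.0206). Idi1, isopentenyl diphosphate isomerase, was at 273 to 418 steps in controls and 613 and 505 in mutants, a 1.61-fold rise (adjusted p = 0.00885). Acat2, which makes acetoacetyl-CoA, rose 1.49-fold (adjusted p = 0.031), from 459 to 589 steps in controls to 929 and 712. In all 3 the mutants were above every control. Mvd, mevalonate diphosphate decarboxylase, was at 555 and 520 steps in mutants against 283 to 387 in controls but lay just outside the threshold (adjusted p = 0.0507). Fdps was the only member with a fitted change below 0 (-0.18 ± 0.16 log2, adjusted p = 0.555), and Mvk, Pmvk and Fdft1 differed by 0.18, 0.16 and 0.22 log2 without passing.

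Of the 6 sensing and transport genes only Insig1, itself a known SREBP target, passed. It was at 726, 772, 860, 862 and 1248 steps in controls and at 1980 and 1230 in mutants, a change of 0.83 ± 0.20 log2 (adjusted p = 0.024), with the second mutant below the highest control. The genes of the SREBP factors themselves did not pass. Srebf1 was at 2721, 2617, 2700, 3091 and 2628 steps in controls and 3332 and 3169 in mutants (0.24 ± 0.12 log2, adjusted p = 0.274), and Srebf2 at 3510, 3377, 3766, 3462 and 3954 against 4189 and 4249 (0.23 ± 0.10 log2, adjusted p = 0.204). In both genes the 2 mutants were above all 5 controls. Scap (0.38 log2, adjusted p = 0.0759), Insig2 and the sterol carrier Stard4 did not pass.

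Fatty acid synthesis held the largest single change among the members. Elovl6 was at 7983, 6493, 10756, 8444 and 5247 steps in controls and 25971 and 18390 in mutants, a 2.89-fold rise (1.53 ± 0.30 log2, adjusted p = 0.0068). Acly was at 4399, 4202, 4682, 4677 and 4162 steps in controls against 6963 and 6447 (0.60 ± 0.10 log2, adjusted p = 0.00231). Fasn was at 11587, 10657, 12420, 12080 and 11960 steps in controls and 20918 and 15508 in mutants (0.62 ± 0.16 log2, adjusted p = 0.03). In these 3 genes the groups were fully separate, and Acss2, which makes acetyl-CoA from acetate, rose 1.86-fold (adjusted p = 0.0075). Acaca, the acetyl-CoA carboxylase, and the desaturases Fads1 and Fads2 did not pass, with differences of 0.27, 0.03 and 0.08 log2.

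**Figure D2:**
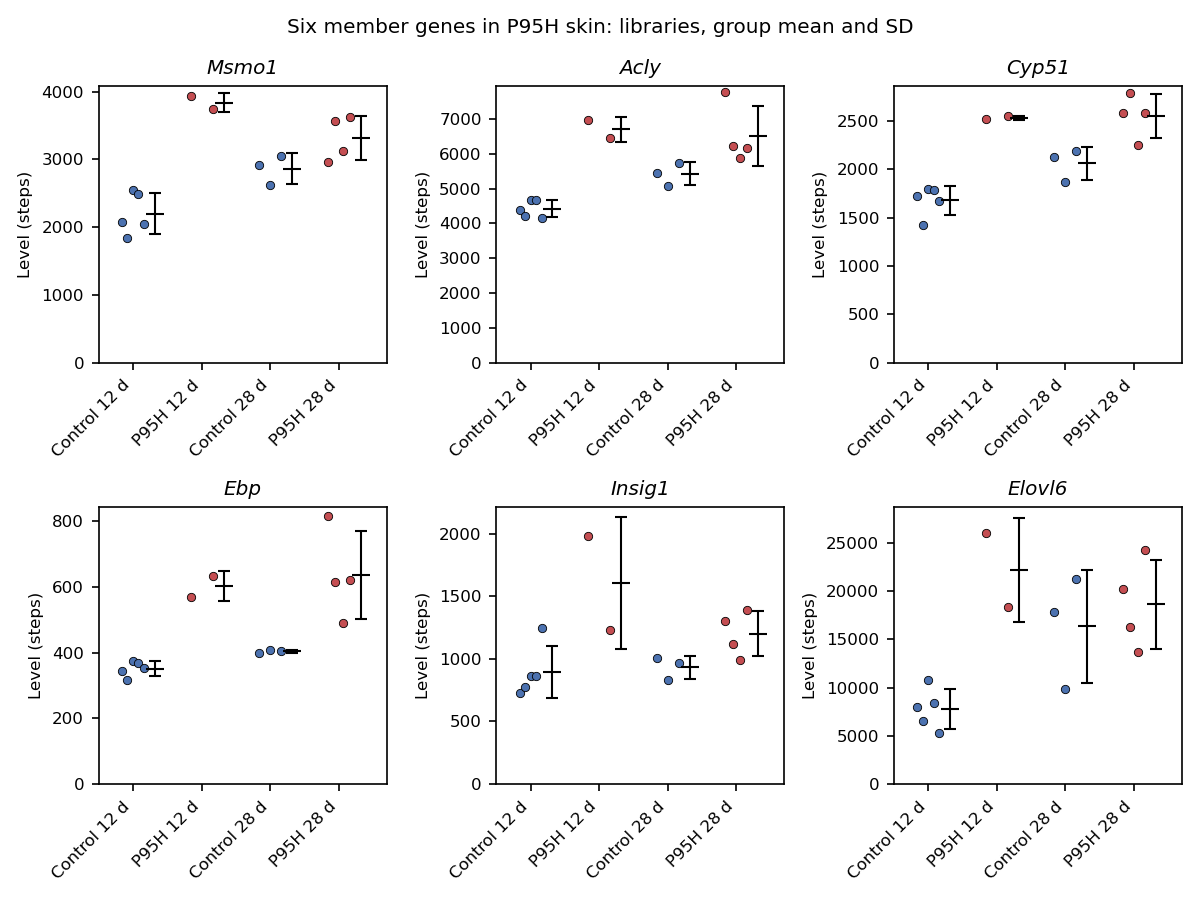
Levels of 6 members in P95H-set skin, in steps on axes that start at 0; points are libraries (blue control, red P95H), and the bar beside each group is its mean with SD (n = 5, 2, 3 and 4). At 12 days the mutants lie above the controls in every panel but Insig1, where 1230 steps in a mutant is below 1248 in a control.

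Further lipid genes were tested beside the members. Of 23 other lipid synthesis genes, 9 rose and 0 fell, among them Slc25a1, the mitochondrial citrate carrier (0.90 ± 0.13 log2, adjusted p = 0.000977), the elongase Elovl7 (1.28 ± 0.19 log2, adjusted p = 0.00102) and Pdss1 (1.44 ± 0.22 log2, adjusted p = 0.00134). Of 14 genes of sterol uptake, storage, efflux and SREBP activation 2 rose and 0 fell, Tmem97 (0.55 ± 0.13 log2, adjusted p = 0.0185) and Soat1 (0.99 ± 0.22 log2, adjusted p = 0.0129), a sterol ester-forming enzyme that is also on the sebaceous list. Sebaceous gland markers moved in the same mutants: 8 of 12 were called higher and 0 lower, 11 of 12 had both mutants above all controls, and the list's median was 1.20 log2. Their summed level was 43230 to 43428 steps in the 2 mutants, 15462 to 24856 in controls at 12 days, 23865 to 34286 in controls at 28 days and 35275 to 43696 in P95H skin at 28 days, and none of the 12 was absent from any group. Elovl3, a sebaceous elongase, rose by 1.83 ± 0.17 log2 (adjusted p = 3.57e-05). Adipocyte markers had 0 of 15 called in either direction and a summed level of 11978 and 35617 steps in the mutants, against 14516 to 19393 in controls. Hair matrix and shaft markers had 0 of 15 called, with sums of 941 to 3501 steps in mutants and 1208 to 27672 in controls. What part these cell types have in the members' rise was not tested.

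The 12-day result has 2 mutants. Fewer members passed when either mutant was left out, and the share of all genes passing in those fits is not given here. Acly, Cyp51 and Msmo1 changed by 0.54, 0.61 and 0.78 log2 without mutant replicate 1. Without mutant replicate 2 these 3 genes changed by 0.66, 0.59 and 0.85 log2. Without mutant replicate 1 the change of Insig1 was 0.49 log2 (adjusted p = 0.32), that of Fasn 0.40 (adjusted p = 0.319) and that of Hmgcs1 0.30 (adjusted p = 0.264). With every library brought to the same total 16 members were called higher, beside 4.13% of all genes higher and 2.71% lower. With the deposited values in place of steps no member was called (beside 0.508% of 18486 genes called higher and 0.573% lower). The members' median was then 0.30 log2 against -0.10 for all genes. A factor per library moves members and all genes nearly alike, so the gap between these medians could not change with this setting.

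In P95H skin at 28 days 3 members rose against control (Cyp51, Ebp and Scap) and 0 fell, beside 6.7% of all genes called higher and 5.46% lower. The change was above 0 in 27 of 31, with a median of 0.22 log2 (-0.0145 over all genes), and all 4 mutants lay above all 3 controls in 5 members, beside 14.5% of all genes. The counts of members called and of members with separate groups are near these shares. Ebp was at 400, 409 and 404 steps in controls and 817, 616, 491 and 621 in mutants (0.63 ± 0.13 log2, adjusted p = 0.00751). Cyp51 was at 2124, 1869 and 2186 against 2581, 2792, 2249 and 2577 (0.31 ± 0.09 log2, adjusted p = 0.045). Scap, the SREBP escort, was at 2605, 2280 and 2334 against 3942, 2831, 2707 and 2954 (0.36 ± 0.11 log2, adjusted p = 0.0496). In all 3 genes every mutant was above every control. The other genes followed throughout did not pass: Insig1 differed by 0.35, Fasn by 0.31, Sqle by 0.24, Srebf2 by 0.23, Srebf1 by 0.18 and Hmgcs1 by -0.05 log2. Mutant replicate 1, the library that stands apart, was the highest of its group for Ebp and Scap; without it Ebp and Sqle were called (Sqle at 0.36 log2, adjusted p = 0.0419), and Cyp51 (0.30 log2, adjusted p = 0.0638) and Scap (0.24 log2, adjusted p = 0.0516) were not. The differences of Fasn, Srebf1 and Srebf2 without that library were 0.16, 0.05 and 0.15 log2. Ebp was called in every fit that left out a library. Leaving out control replicate 2 or 4 or mutant replicate 2 or 4 gave 1 member each time, and leaving out mutant replicate 3 gave 5. The share of all genes called in those fits is not given here, so these counts cannot be read as particular to the members. Equal totals gave 1 member, beside 5.68% of all genes called higher and 6.75% lower. Deposited values gave 0, beside 3.32% of all genes called higher and 0.0757% lower, with an all-gene median of 0.59 log2.

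Sebaceous markers at 28 days had 2 of 12 called higher and 0 lower (median 0.31 log2), beside 6.7% of all genes called higher and 5.46% lower. Among the 23 other lipid synthesis genes 4 rose (Mid1ip1, Pgd, Elovl7 and Hacd3) and 1 fell (Oxsm, by 0.35 log2), and of the 14 uptake and storage genes Tmem97 rose and the lysosomal lipase Lipa fell, by 0.32 log2.

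The change of the P95H effect from 12 to 28 days was tested as an interaction. It was below 0 in 25 of 31 members, with a median of -0.18 log2, but 0 members passed, beside 0.0109% of all genes; at an unadjusted p under 0.05 there were 8 members, beside 8.21% of all genes. Nsdhl had the smallest p (-0.59 ± 0.16 log2, adjusted p = 0.371), followed by Msmo1 (-0.60 ± 0.17 log2, adjusted p = 0.386), Hmgcs1 (-0.51 ± 0.15 log2, adjusted p = 0.398) and Elovl6 (-1.30 ± 0.41 log2, adjusted p = 0.438). The 2 effects rest on separate controls, and these differed as well: the fitted difference of control skin at 28 minus 12 days had a median over the members of 0.18 log2 (0.00198 over all genes). In that comparison 27 of 31 were above 0 and 0 were called, beside 0.00546% of all genes; 10 members had an unadjusted p under 0.05, beside 11.7% of all genes. Other cell types' markers differed between the same controls, with 0 called. The 15 hair matrix and shaft markers were all below 0 (median -5.02 log2), with summed levels of 773 to 1205 steps at 28 days and 1208 to 27672 at 12 days. Of the 12 sebaceous markers 11 were above 0 (median 0.56 log2), with sums of 23865 to 34286 and 15462 to 24856 steps. Their part in the members' differences was not tested. Elovl6 was at 17854, 9848 and 21291 steps in the 28-day controls, 2.05-fold the 12-day controls (adjusted p = 0.212), so that the 12-day mutants (25971 and 18390) overlapped the 28-day controls. For Msmo1 the 28-day controls were at 2924, 2618 and 3054 steps, below both 12-day mutants.

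**Figure D3:**
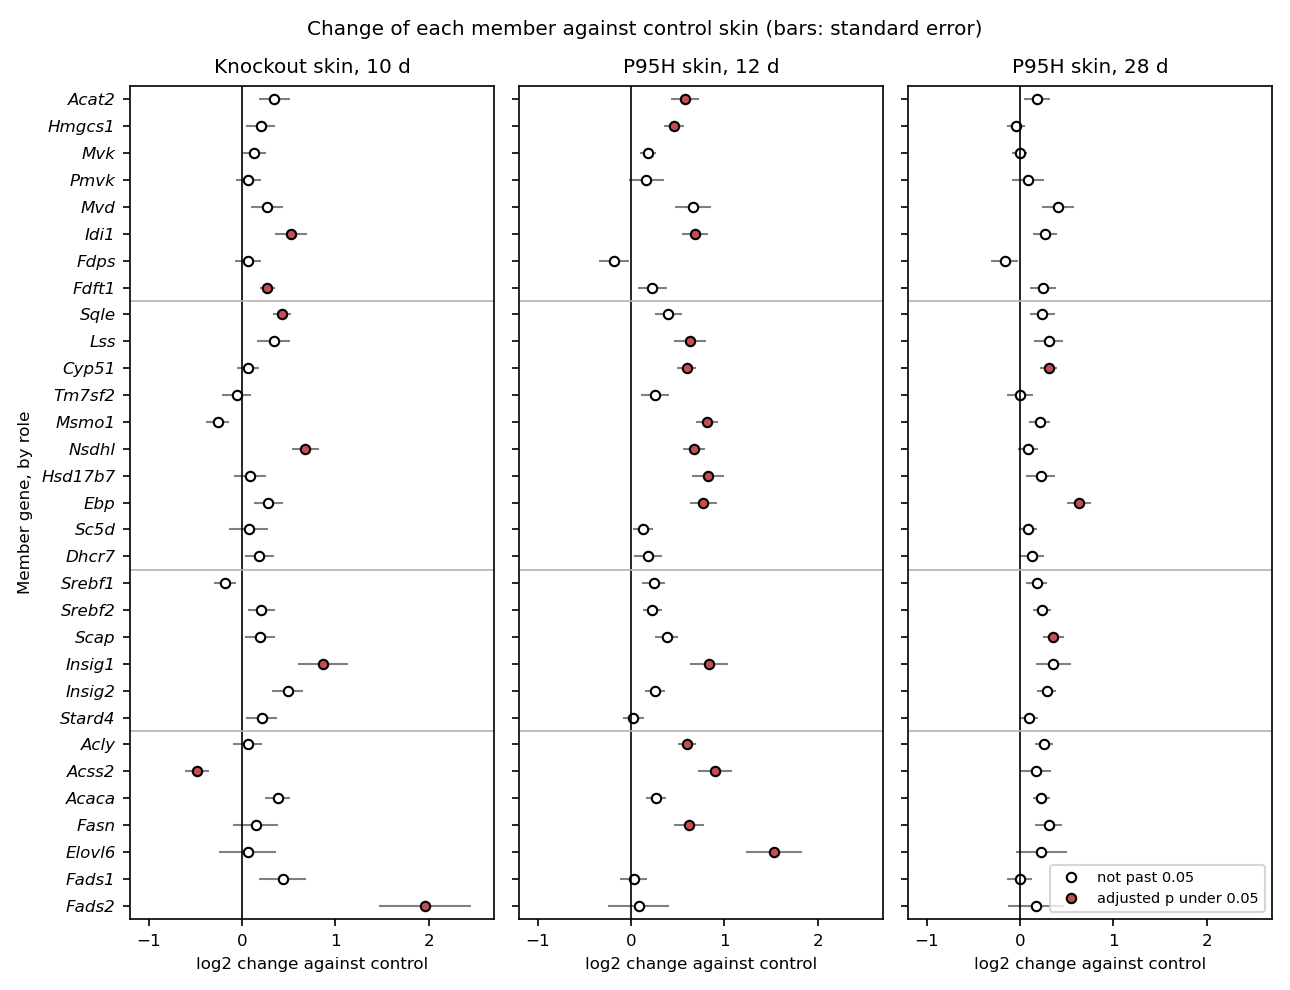
Fitted log2 change of each member against its control skin with its standard error, in knockout skin at 10 days and P95H skin at 12 and 28 days; filled points have an adjusted p under 0.05. The filled points number 7, 14 and 3, and all but Acss2 in knockout skin lie above 0.

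In knockout skin, members passed the test against control at 10 days, and none did at 4 or 12 days. At 4 days 0 of 31 passed, beside 11.3% of all genes called in either direction, with 7 at an unadjusted p under 0.05, beside 26.8%. Fdft1 (-0.26 ± 0.08 log2, adjusted p = 0.0589) and Ebp (0.47 ± 0.16 log2, adjusted p = 0.0742) had the smallest p at that time. At 12 days 0 passed, beside 1.28%, with 5 at an unadjusted p under 0.05, beside 19.7%, led by Hsd17b7 (0.60 ± 0.17 log2, adjusted p = 0.103) and Fdps (-0.44 ± 0.14 log2, adjusted p = 0.121). At 10 days 6 rose and 1 fell, beside 13.3% of all genes called higher and 11.9% lower. Of the members, 27 had a change above 0 (median 0.20 log2, against -0.0205 over all genes), and 9 had all 3 knockouts above all 3 controls, beside 22% of all genes. These counts are near the shares over all genes.

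**Figure D4:**
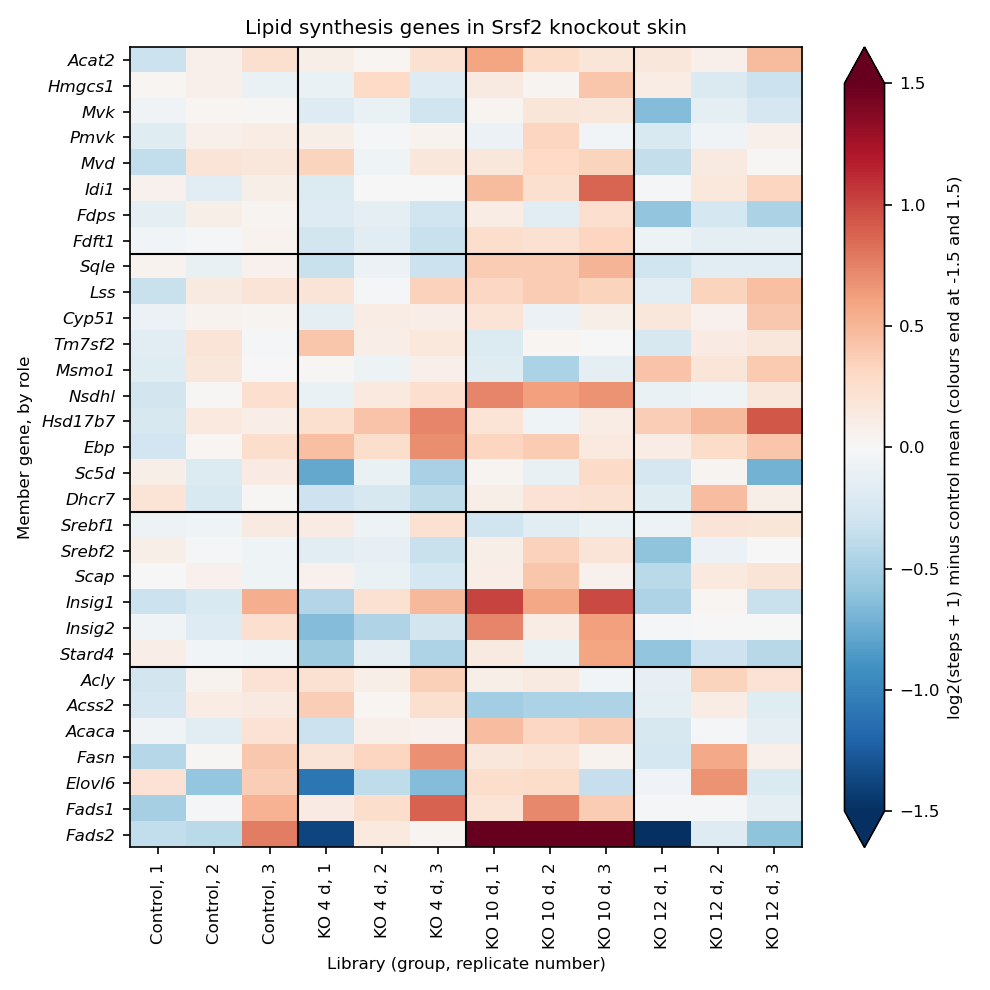
Levels of the 31 members in the 12 knockout-set skin libraries, as log2(steps + 1) minus the mean of the 3 controls (colour; rows are genes by role, columns libraries). The 10-day libraries are red for Insig1, Nsdhl, Sqle and Fads2 and blue for Acss2.

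Nsdhl was at 521, 637 and 750 steps in controls and 1049, 968 and 1008 at 10 days (0.68 ± 0.15 log2, adjusted p = 0.0104). Sqle was at 2519, 2256 and 2546 against 3173, 3186 and 3463 (0.42 ± 0.10 log2, adjusted p = 0.0128). Fdft1, squalene synthase, was at 1834, 1861 and 1962 against 2254, 2204 and 2351 (0.27 ± 0.08 log2, adjusted p = 0.033), a direction that turned to -0.052 log2 when every library was brought to the same total. Fdft1 makes squalene, Sqle oxidises it and Nsdhl acts after lanosterol, and in each the 10-day skins were above all controls. Insig1 was at 1367, 1457 and 2478 steps in controls and 3444, 2549 and 3391 at 10 days (0.86 ± 0.27 log2, adjusted p = 0.0374), and Idi1 rose by 0.53 ± 0.17 log2 (adjusted p = 0.0426). Fads2 was at 310, 303 and 685 steps in controls and 1207, 2096 and 1512 at 10 days, a 3.90-fold rise (1.96 ± 0.50 log2, adjusted p = 0.0182). Acss2 fell, from 1316, 1681 and 1721 to 1091, 1127 and 1136 steps (-0.48 ± 0.13 log2, adjusted p = 0.023). Groups did not overlap in any of these 7 genes. The others followed throughout did not pass: Srebf2 differed by 0.21, Hmgcs1 by 0.20, Fasn by 0.14 and Srebf1 by -0.19 log2.

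Between times, 11 members rose and 1 (Acss2) fell from 4 to 10 days, beside 18.9% and 21.4% of all genes, and 3 rose and 11 fell from 10 to 12 days, beside 19.2% and 18.3%; both comparisons share the 10-day libraries with the one against control. The 11 were Idi1, Fdft1, Sqle, Nsdhl, Dhcr7, Srebf2, Insig1, Insig2, Stard4, Acaca and Fads2. From 10 to 12 days Mvk and Fdps fell as well as 9 of these, all but Idi1 and Dhcr7, while Msmo1, Hsd17b7 and Acss2 rose. From 4 to 12 days 0 passed, beside 0.144% of all genes, with 5 at an unadjusted p under 0.05, beside 16.1%. Sqle went from 1934, 2284 and 1946 steps at 4 days to 3173, 3186 and 3463 at 10 days (0.68 ± 0.10 log2, adjusted p = 0.000375) and to 1988, 2173 and 2185 at 12 days (-0.63 ± 0.10 log2, adjusted p = 0.000967). Fdft1 was at 1551, 1674 and 1499 steps at 4 days (0.53 ± 0.08 log2 to 10 days, adjusted p = 0.0005) and 1789, 1717 and 1702 at 12 days (-0.39 ± 0.08 log2, adjusted p = 0.00411). Both genes thus had separate, higher values at 10 days than at either side. Insig1 was at 1258, 2000 and 2376 steps at 4 days and 1239, 1731 and 1356 at 12 days, the latter a fall by 1.12 log2 from 10 days (SE 0.27, adjusted p = 0.00833). Insig2, its relative, rose 1.92-fold from 4 to 10 days (1262, 1448 and 1640 to 3289, 2135 and 3042 steps, adjusted p = 0.00124). Fads2 showed the widest swing, from 154, 442 and 414 steps at 4 days to the 10-day values and then to 114, 350 and 264 at 12 days, a fall by 2.83 log2 (SE 0.50, adjusted p = 0.00184). Srebf2 rose 1.33-fold from 4 to 10 days (adjusted p = 0.0447) and fell by 0.44 log2 from 10 to 12 days (adjusted p = 0.0379; -0.25 log2, adjusted p = 0.111, without 12-day replicate 1), while Srebf1 did not pass in either. Msmo1 went the other way, from 2098, 1705 and 2163 steps at 10 days to 3203, 2696 and 3104 at 12 days (0.60 ± 0.12 log2, adjusted p = 0.00404).

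**Figure D5:**
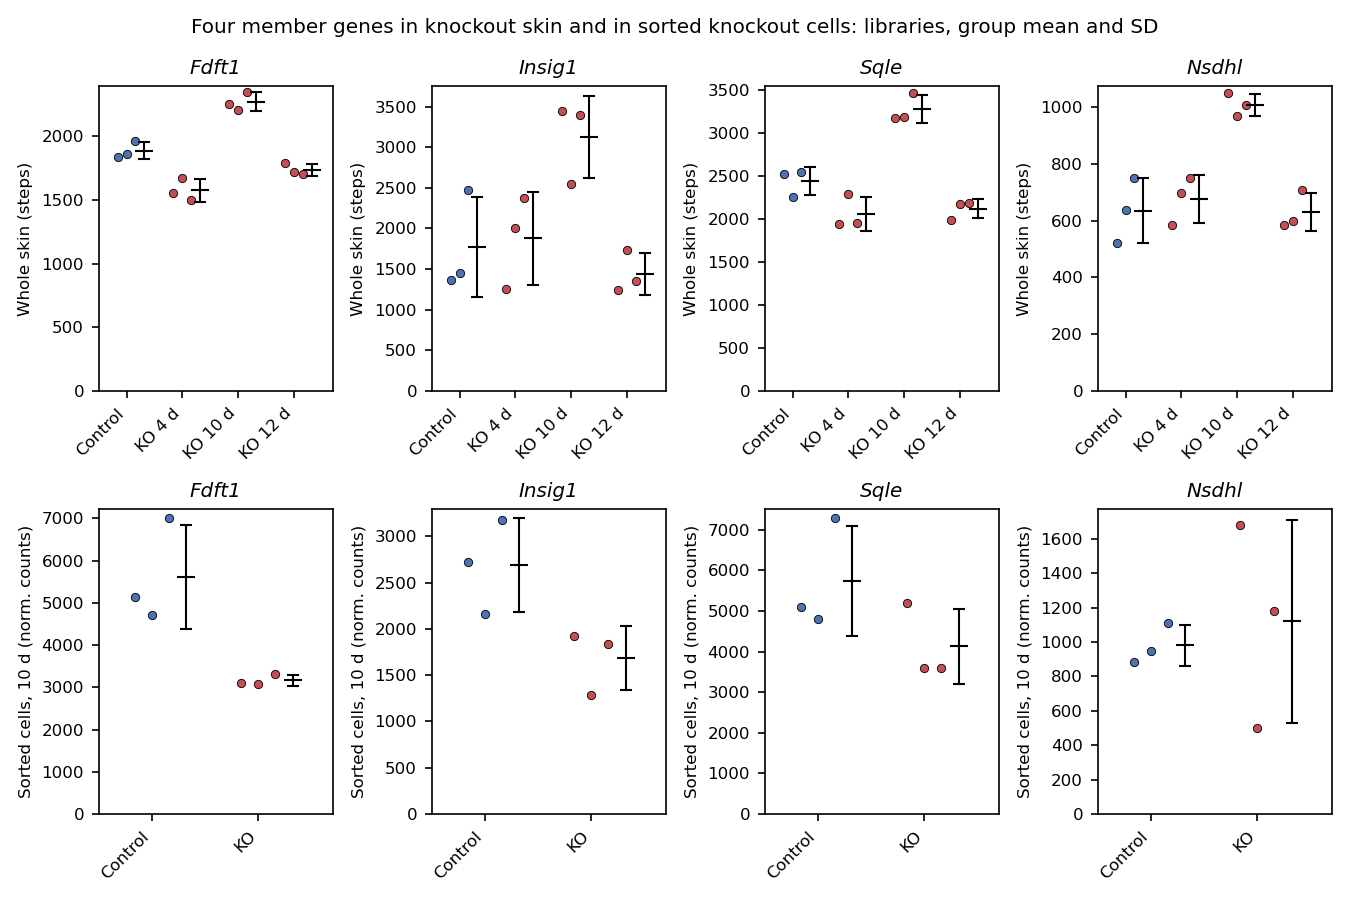
Levels of 4 members in whole knockout skin (upper row, steps) and in sorted reporter positive cells at 10 days (lower row, normalised counts), on axes that start at 0; points are libraries (blue control, red knockout), bars the group mean with SD (n = 3). In skin the 10-day values are the highest of each upper panel; in sorted cells the knockout values lie below all controls for Fdft1 and Insig1.

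Other cell types differed in the same 10-day skins. All 15 hair matrix and shaft markers tested were called higher, with a median of 6.70 log2 and a summed level of 2775400 to 3794800 steps, against 3522 to 133570 in controls and 619 to 22712 at 12 days. All 6 melanocyte and all 7 proliferation markers were called higher, and 6 of 15 adipocyte markers lower (summed level 27297 to 36473 steps, against 33179 to 114460 in controls). Of 12 sebaceous markers 2 were called higher (47843 to 60029 against 30482 to 47959 steps). Over all genes 13.3% were called higher and 11.9% lower. The sebaceous count is near that share and its summed levels overlapped, so it marks no sebaceous change. No marker of these lists was absent from a group. Their part in the members' changes was not tested. Of the 23 other lipid synthesis genes 5 rose and 3 fell at 10 days, among them Acsl3, a long-chain acyl-CoA synthetase (1.02 ± 0.24 log2, adjusted p = 0.0139), Elovl7 (0.82 ± 0.21 log2, adjusted p = 0.0178) and the desaturase Scd2 (0.98 ± 0.25 log2, adjusted p = 0.0184). Of the 14 uptake and storage genes 0 rose and 3 fell, Lpin1 by 1.02, Pnpla3 by 0.92 and Nr1h3, the LXR alpha gene, by 0.76 log2.

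The knockout counts depend on how libraries are scaled. When every library was brought to the same total, the median of all genes at 10 days moved from -0.0205 to -0.34 log2, and the members' calls against control went from 6 higher and 1 lower to 1 and 3, beside 6.18% of all genes called higher and 35.1% lower. At equal totals Acss2 (-0.80 log2) and Fads2 (1.64 log2) were still called and Msmo1 (-0.58) and Srebf1 (-0.51 log2) were the other calls, while Nsdhl was at 0.36, Insig1 at 0.54, Idi1 at 0.21, Sqle at 0.11 and Fdft1, in the other direction, at -0.052 log2, without passing. From 4 to 10 days equal totals gave 4 higher and 6 lower, beside 11.5% and 34.6% of all genes, and from 10 to 12 days 5 and 3, beside 39.6% and 9.39%. In these fits Sqle kept its calls (0.44 and -0.32 log2), whereas Fdft1 was at 0.29 and -0.080 log2, the latter not passing, and Srebf2 at 0.17 and -0.13 log2, neither passing. With deposited values the members' calls against control were 9 higher and 0 lower, beside 17.5% and 2.82% of all genes. From 4 to 10 days they were 17 and 0, beside 29% and 7.55%, and from 10 to 12 days 0 and 11, beside 7.35% and 18.7%. Beside the median of all genes, the members' median at 10 days was 0.20 against -0.0205 log2 in steps. It was -0.12 against -0.34 at equal totals and 0.48 against 0.26 with deposited values. Such scaling multiplies each library by a factor, which moves members and all genes nearly alike. The gap between these medians was thus fixed in advance and is no support across scalings. Only Nsdhl was called against control at 10 days whichever library was left out. Leaving out control replicate 2 gave 1 member, control replicate 1 gave 3, knockout replicate 1 or 3 gave 3 and knockout replicate 2 gave 4. The share of all genes called in those fits is not given here, so these counts cannot be read as particular to the members.

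In sorted reporter positive cells 10 days after deletion, 0 of 31 members passed by limma, beside 0.0394% of all genes, with 2 members at an unadjusted p under 0.05 (Fdft1 and Insig1), beside 17.2% of all genes. edgeR's quasi-likelihood test on the recovered reads called 0 and DESeq2 1, Fdft1 (adjusted p = 0.0229). The shares of all genes called by these tests are not given here, so the counts mark no result about the members. Fdft1 was at 5137, 4703 and 7018 normalised counts in controls and 3104, 3072 and 3316 in knockouts (-0.81 ± 0.21 log2, adjusted p = 0.168). Insig1 was at 2722, 2159 and 3175 against 1924, 1284 and 1839 (-0.68 ± 0.25 log2, adjusted p = 0.238). All knockouts lay below all controls in both genes, as in 4 others (Hmgcs1, Srebf2, Insig2 and Stard4), 6 members in all, beside 15.8% of all genes. This count is near that share. Scap was separate in the other direction, at 13039, 14499 and 15568 in controls and 16445, 19689 and 16632 in knockouts. Hmgcs1 was at 23104, 23009 and 28622 against 18292, 12074 and 20958 (-0.57 ± 0.25 log2, adjusted p = 0.297), and Srebf2 at 19242, 19973 and 25792 against 18199, 18590 and 16832. Sqle (-0.47), Fasn (0.16) and Srebf1 (-0.11 log2) had overlapping groups. Fads2, which rose in whole skin, was low here, at 21.2, 8.10 and 4.28 in controls and 75.3, 0 and 1.81 in knockouts. Adipocyte markers were low in these cells, with 7 of 15 reaching a mean of 10, and Pck1 was at 0 in every library. Sebaceous markers summed to 167960 to 189950 normalised counts in knockouts and 82793 to 124590 in controls, with 0 of 12 called. Without knockout replicate 2, the library that stands apart, the changes were -0.79 for Fdft1, -0.50 for Insig1, -0.34 for Hmgcs1 and -0.45 log2 for Srebf1, none of which passed.

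In sorted cells of DMBA/TPA-treated skin, 0 of 31 members differed between heterozygous P95H and control mice by limma, beside 0% of all genes. At an unadjusted p under 0.05 there were 8 members, beside 15.9% of all genes. edgeR called 0 and DESeq2 1, Sqle (adjusted p = 0.0306). The shares of all genes called by edgeR and DESeq2 are not given here, so these counts mark no result about the members. Sqle was at 2035, 2471 and 2555 normalised counts in controls and 1718, 1888 and 1600 in P95H cells (-0.44 ± 0.11 log2, adjusted p = 0.146), and Srebf2 at 4409, 4929 and 4828 against 4280, 3601 and 3598 (-0.31 ± 0.10 log2, adjusted p = 0.206). Both were separate and lower. Fads1 and Fads2 were separate and higher, Fads1 at 81.1, 87.2 and 76.7 against 108, 143 and 127 (0.61 ± 0.16 log2, adjusted p = 0.158) and Fads2 at 22.6, 24.1 and 16.4 against 41.9, 35.5 and 31.7 (0.77 ± 0.26 log2, adjusted p = 0.213). Hmgcs1 (-0.34), Fasn (-0.24), Insig1 (-0.20) and Srebf1 (0.05 log2) overlapped. The share of all genes with separate groups in this comparison is not given here, so separation alone marks no result about the members. The median over the members was -0.14 log2, with 11 of 31 above 0. These mice differ from those of the 12-day skin in zygosity as labelled, treatment, time and the cells taken, so the values stand side by side only.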

How the data were processed

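Total RNA was sequenced from 38 libraries of mouse back skin or of cells sorted from it. The kits were TruSeq Stranded Total RNA Gold (knockout mice and their controls) and stranded total RNA with Ribo-Zero Plus (P95H mice and theirs), per the labels' protocols. STAR, featureCounts and DESeq2 are named in the submitters' processing notes; versions and build: not given in the sources used here. Each deposited value is a signal, the authors' normalised count of a gene in a library.

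Every value was a whole multiple of 1 unit per library (100% of values, relative tolerance 0.0001). In both sorted tables these multiples were taken as reads, and the deposited values were analysed. In both whole-skin tables undetected genes sat at 1 unit and the deposited values carried a further factor per library, so the unit multiples (steps) were analysed in place of the planned normalised counts, with the deposited values as an alternative. Such steps are no read counts, so depth in whole skin is unknown beyond the totals in steps. Genes with a mean of at least 10 entered 1 limma 3.58.1 fit per table (R 4.3.3; log2(value + 1), trended prior variance, 1 coefficient per group). Two-sided p-values were adjusted by Benjamini-Hochberg across every gene of the fit, with a threshold of 0.05. A fold is thus on the log2(value + 1) scale. Alternatives were deposited values, a pseudocount of 10, no filter, equal library totals, only the compared groups, the replicate number as a block, each library left out and, on the recovered reads of sorted cells, edgeR 4.0.16 and DESeq2 1.42.0. The limma script was tested on simulated data. The labels call the samples biological replicates with separate mouse numbers; p-values measure the spread between these mice.

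The members, the further lists and the tests were chosen with earlier results of these data known. All 31 members are accounted for. Values per library are given for up to 6 members with the smallest p per comparison and always for Srebf1, Srebf2, Insig1, Hmgcs1, Sqle and Fasn, with up to 3 genes past the threshold from each further list. Symbols repeated within a table (93) were kept apart by identifier. Exon lengths came from GENCODE M21 (GRCm38), and promoter windows from RefSeq (GRCm38.p6). All value columns were used.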

Additional observations from a re-analysis of the deposited data

Results flagged for a closer look

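Among the 62 combinations of a member and a group of 4 or 5 mice, 7 had a highest or lowest library set apart from the rest by Dixon's criterion; chance alone marks about 1 in 20 such groups. Replicate 1 of the P95H group at 28 days was the highest for 4 genes: Mvd at 744 steps (others 436 to 451), Fdft1 at 2412 (1501 to 1551), Srebf1 at 4096 (2751 to 2931) and Fasn at 25071 (15839 to 17316). It is also the library with a step of 2.35 and the fewest genes above 1 step. In the same group replicate 3 was the lowest for Nsdhl, at 505 steps (581 to 592). In control skin at 12 days replicate 4 was the highest for Srebf1, at 3091 steps (2617 to 2721), and replicate 5 for Insig1, at 1248 (726 to 862).

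For 4 members the groups were separate in opposite directions in 2 sample types. The share of all genes that did so is not given here, so the count is no result about the members. Separation in 1 comparison was common over all genes. It held for 22% (higher, knockout skin at 10 days), 15.8% (lower, sorted knockout cells) and 13.7% (higher, P95H skin at 12 days). Deletion of Srsf2 at 10 days gave 0.27 log2 for Fdft1 in whole skin (-0.052 at equal library totals) and -0.81 in sorted cells, and 0.86 and -0.68 for Insig1; the skin values passed the test by limma and the sorted ones did not. P95H gave 0.40 log2 for Sqle in whole skin at 12 days and -0.44 in sorted DMBA/TPA cells, and 0.23 and -0.31 for Srebf2. None of these passed by limma, while DESeq2 called Sqle in the sorted cells. These differences between sample types were not tested. The tables differ in kit or cells and were normalised separately.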

How the results depend on the processing

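The count of members called is most sensitive in P95H skin at 12 days, where 14 in the report became 0 with deposited values and 6 with no filter on low values, and 4 to 15 when a library was left out; it was 14 with a pseudocount of 10, with only the compared groups and with the replicate block, and 16 at equal library totals. At 28 days the 3 became 0 with deposited values, 1 with no filter, 1 at equal totals, 1 with only the compared groups and 2 with the replicate block, and 1 to 5 when a library was left out. In knockout skin at 10 days the 7 became 3 with no filter and 4 at equal totals, and 1 to 7 without 1 library. At 4 days the count was 0 to 2 without 1 library. From 4 to 10 days the 12 became 7 with no filter and 6 to 12 without 1 library, and from 10 to 12 days the 14 became 8 at equal totals and 9 to 12 without 1 library. Where limma called 0 members, DESeq2 called 1 in each sorted comparison (Fdft1 for the knockout, Sqle for P95H). Fdft1 in knockout skin at 10 days was reversed at equal totals, at -0.052 log2. The cause of these changes was not tested. Among these alternatives, shares over all genes are given above only for deposited values and equal totals. The other counts carry none, so they cannot be read as changes particular to the members. Of 617 refits of the 50 single calls, 439 stayed past the threshold and 177 fell short of it in the same direction.

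Same-numbered samples carry different mouse numbers, and the correlation of their deviations ranged from -0.46 to 0.84 over all comparisons. In both sorted comparisons each mutant library correlated best with the control of its own number. These correlations were 0.058 to 0.19 for the knockout and 0.056 to 0.15 after DMBA/TPA. Whether same-numbered samples share a batch was not tested. With the replicate block the knockout count at 10 days was 8 (7 higher, 1 lower), and those from 4 to 10 days and from 10 to 12 days were 12 and 14. Where a group of 2 loses a library, the lone one is assumed to vary like the other groups. In P95H skin Fads2 (group means of 98.7 to 131 steps) and Fdps (129 to 164 steps) were among the lowest members. Steps are no read counts, so how far depth limits precision for such members is unknown.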
